A study of Mus musculus with 4 samples.

Results

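Aminoacyl-tRNA synthetases are the enzymes that join each amino acid to its own transfer RNA. Their genes were followed in mouse 4T1-T breast cancer cells, a derivative of the 4T1 mammary carcinoma line, in which asparagine synthetase (Asns) had been silenced. Members were the rows of the deposited gene count table whose symbol was on a list of 36 synthetase genes. All 36 were found among the 23481 genes of the table, 20 for the cytosolic enzymes and 16, with symbols ending in 2, for the mitochondrial ones. The groups were Asns-silenced cells grown in DMEM without asparagine (2 libraries, A and B) and Asns-silenced cells grown in DMEM with asparagine (2 libraries, A and B). Silencing was shared by both groups, and no unsilenced library was analysed here. The labels do not say how the gene was silenced, whether the cells were a clone, or how long they were kept in each medium. The question was how asparagine in the medium changes gene expression in cells that have been impaired in making it.

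Cytosolic synthetases charge the tRNAs used by the ribosomes of the cytosol, and a separate, nuclear-encoded set is imported to charge the tRNAs of mitochondria. Gars and Kars encode both forms from a single gene each, so they stand here in the cytosolic set alone. When an amino acid runs short, uncharged tRNA activates the kinase GCN2, phosphorylation of eIF2 alpha follows, and translation of the transcription factor ATF4 increases. ATF4 is known to bind C/EBP-ATF response elements, written CARE here, in genes for amino acid synthesis, amino acid transport and a good part of the cytosolic synthetases. The mitochondrial synthetases are not commonly listed among its targets.

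In 5 cytosolic members a CARE was present in the window from 250 bases before to 50 bases after the gene start, and their promoters are shown because they carry the letters of the element that ATF4 binds. The windows are from RefSeq on build GRCm38.p6, are written 5′ to 3′ along the strand of the gene, and have each match to TGATGNAA, read on either strand, in capitals.
Aars promoter (chr8:111033592-111033891, plus strand): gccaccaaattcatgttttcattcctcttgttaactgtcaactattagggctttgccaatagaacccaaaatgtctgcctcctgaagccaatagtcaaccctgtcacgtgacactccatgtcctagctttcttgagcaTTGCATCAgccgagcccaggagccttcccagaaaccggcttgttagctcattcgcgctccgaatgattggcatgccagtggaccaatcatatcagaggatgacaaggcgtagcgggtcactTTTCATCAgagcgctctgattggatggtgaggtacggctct
Gars promoter (chr6:55037751-55038050, plus strand): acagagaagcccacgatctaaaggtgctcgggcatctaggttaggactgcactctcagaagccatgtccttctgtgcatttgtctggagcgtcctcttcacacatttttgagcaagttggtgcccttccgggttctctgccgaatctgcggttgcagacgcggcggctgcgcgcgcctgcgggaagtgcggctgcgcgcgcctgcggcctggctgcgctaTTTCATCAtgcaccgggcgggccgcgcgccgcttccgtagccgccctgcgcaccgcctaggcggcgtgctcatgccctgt
Iars promoter (chr13:49681880-49682179, plus strand): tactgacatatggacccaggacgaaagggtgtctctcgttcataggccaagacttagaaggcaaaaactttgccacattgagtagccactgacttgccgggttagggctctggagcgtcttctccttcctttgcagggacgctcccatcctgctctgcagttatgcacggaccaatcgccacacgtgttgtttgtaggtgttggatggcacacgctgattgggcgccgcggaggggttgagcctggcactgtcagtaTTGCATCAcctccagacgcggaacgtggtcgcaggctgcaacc
Tars promoter (chr15:11399609-11399908, minus strand): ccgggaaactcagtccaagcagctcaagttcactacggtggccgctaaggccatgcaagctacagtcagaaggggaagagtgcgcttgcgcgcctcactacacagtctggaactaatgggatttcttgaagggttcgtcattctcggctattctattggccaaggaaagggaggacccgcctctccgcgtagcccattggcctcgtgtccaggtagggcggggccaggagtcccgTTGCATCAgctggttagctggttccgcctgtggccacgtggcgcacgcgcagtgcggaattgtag
Yars promoter (chr4:129189653-129189952, plus strand): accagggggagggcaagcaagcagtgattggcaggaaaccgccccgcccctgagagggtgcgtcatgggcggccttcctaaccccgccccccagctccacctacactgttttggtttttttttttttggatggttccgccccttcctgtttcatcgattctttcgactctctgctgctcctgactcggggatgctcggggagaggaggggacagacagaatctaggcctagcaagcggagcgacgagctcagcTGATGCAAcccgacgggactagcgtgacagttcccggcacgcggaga

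Of the 36 members, 27 had a promoter window in the RefSeq table, 13 of them cytosolic and 14 mitochondrial. Mars was matched there through its synonym. Cars, Hars, Lars, Nars, Rars, Vars, Wars, Hars2 and Pars2 were not matched. The CARE letters were present in 5 of the 13 matched cytosolic members and in 0 of the 14 mitochondrial ones, against 3.97% of all 32851 windows of this length. The members are counted as genes and the share is of windows, and Aars2 had overlapping windows. Aars held 2 matches, the first bases of which lay 112 bases before the start and at base 10 of the transcript. In Gars the match began 30 bases before the start and in Tars 15 bases before it. In Iars and Yars it began at bases 8 and 4 of the transcript. All 5 belonged to the 8 matched members commonly listed as ATF4 targets, and none of the 5 other matched cytosolic members held these letters. A match of letters is a description of the window and not a measurement of binding.

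Across the libraries, reads assigned to genes numbered between 17977552 and 30260582, and 12843 genes passed the low-count filter, all 36 synthetase genes among them. The smallest count of any member was 85 reads, for Ears2. The carcinoma markers Epcam, Krt8, Krt18 and Cdh1 were at 37.3 to 413.5 CPM, the count scaled to a common, TMM-adjusted library total. The leukocyte marker Ptprc, the endothelial marker Pecam1 and the fibroblast collagen Col1a1 stayed at or below 0.491 CPM in every library, while Pdgfra, also a fibroblast marker, had 18.1 and 22.8 CPM without asparagine, against 42.8 and 40.7 CPM with it. Pdgfra fell (log2 fold change -1.03, edgeR adjusted p = 0.0221) and Epcam rose (0.68, edgeR adjusted p = 0.0368) without asparagine, and the part of either in the results was not tested. The silenced gene Asns had 74.99 and 89.2 CPM without asparagine, against 102.7 and 101.3 CPM with it (log2 fold change -0.31, edgeR adjusted p = 0.235), which checks no silencing because both groups carry it. Library A without asparagine stood apart. It had 56.6% of its reads outside annotated features, against 46.3% to 49.3% in the other libraries. The ribosomal RNA precursor Rn45s took 3.53% of its gene counts, against 1.66% in its partner B and 0.884% and 1.18% in the libraries with asparagine.

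None of the 36 synthetase genes passed the test between growth without and with asparagine. In edgeR's quasi-likelihood test, with Benjamini-Hochberg adjustment over all genes and a threshold of 0.05, 0 members were called against 1.85% of all tested genes (237 of 12843), 0.771% being called higher and 1.07% lower. At an unadjusted p under 0.05 there were 5 members, all with higher values without asparagine, or 13.9% of the members beside 18.1% of all tested genes. DESeq2 and limma-voom also called 0 members, with 4 and 5 at an unadjusted p under 0.05. The median log2 fold change (without over with asparagine) was 0.05 over the cytosolic set and 0.18 over the mitochondrial set, beside 0.01 over all genes tested. In all, 13 of 20 cytosolic and 14 of 16 mitochondrial members lay above 0, beside 51.4% of all genes. In bulk RNA, a different share of cells of a type and a different amount of RNA per cell cannot be told apart.

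**Figure D1:**
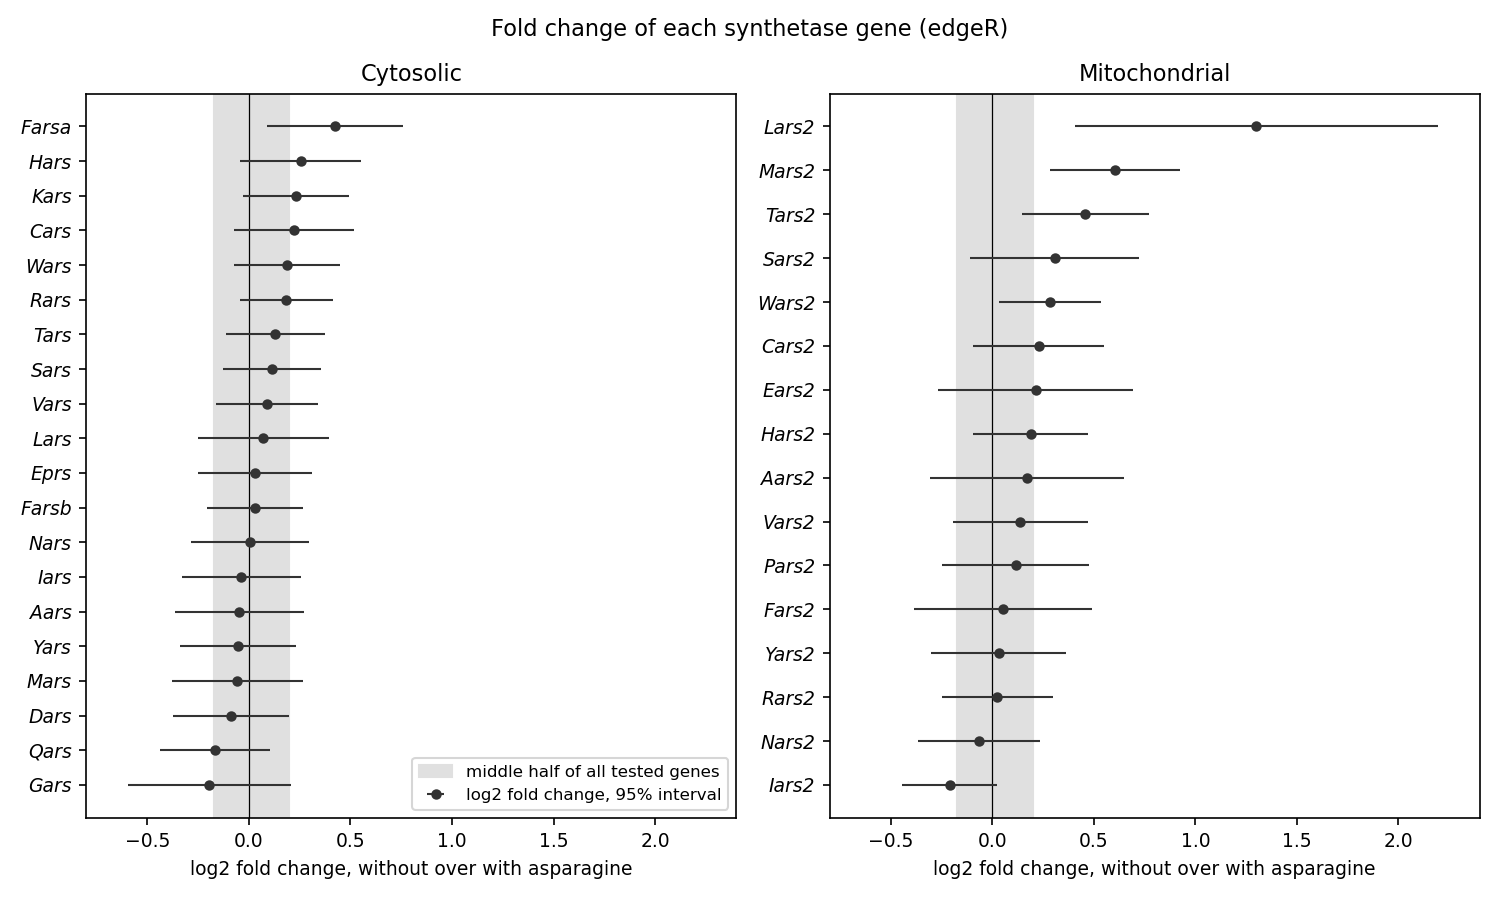
Log2 fold change of each synthetase gene, without over with asparagine, from the edgeR fit on 2 libraries a group, with its 95% interval as a bar. The grey band spans the quartiles of all 12843 tested genes, from -0.17 to 0.20. Lars2, at 1.30, lies farthest from 0, and most cytosolic points lie inside the band.

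Taking the libraries as they are, 19 of the 36 members had both libraries without asparagine above both with asparagine, where 26.1% of all tested genes did. These were 9 cytosolic and 10 mitochondrial members. Only Qars and Iars2 had both libraries without asparagine below both with it, an arrangement seen in 26.4% of all tested genes. The groups thus did not overlap in 21 members, where 52.5% of all tested genes did not overlap either way, and they overlapped in 15.

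**Figure D2:**
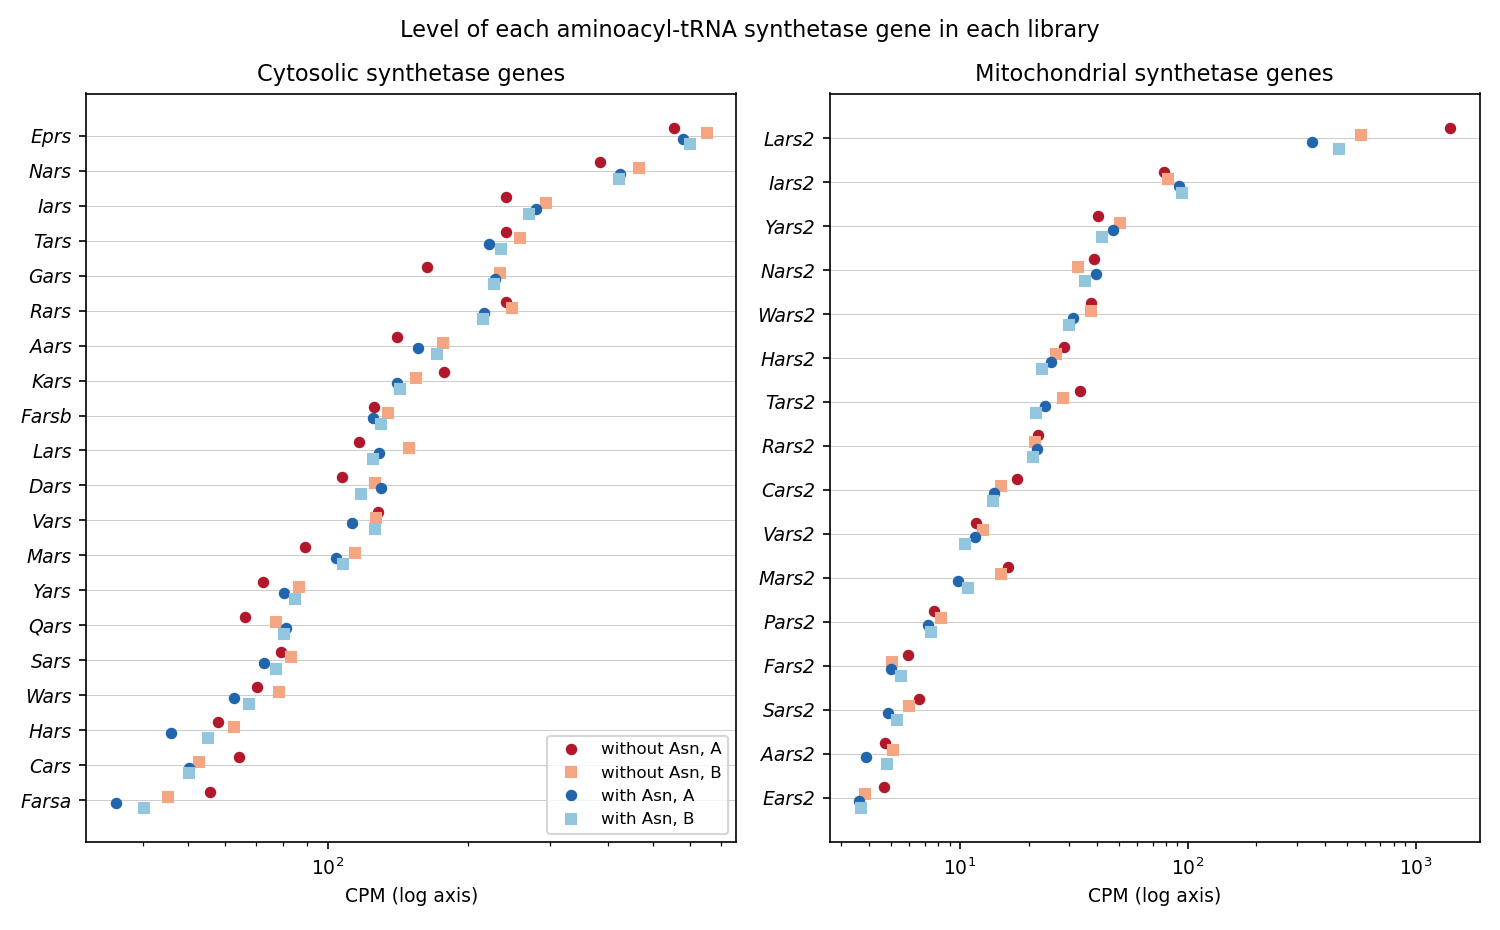
Level of each synthetase gene in CPM (log axis) in the 4 libraries, cytosolic members on the left and mitochondrial members on the right, ordered by their mean with asparagine. Red and orange symbols are the libraries without asparagine and blue symbols those with it. For Gars, Nars, Iars and Eprs the library A without asparagine is the lowest point and library B the highest.

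Among the cytosolic enzymes, the asparaginyl-tRNA synthetase gene Nars is the one whose substrate was varied. Nars had 384.1 and 465.6 CPM without asparagine (A, then B), against 424.2 and 421.3 CPM with asparagine. The libraries without asparagine lay on either side of those with it. Its log2 fold change was 0.01 ± 0.12 (SE, 95% interval -0.28 to 0.30, edgeR adjusted p = 0.980). The sign turned on the library kept, at 0.14 with asparagine-free library A dropped and -0.14 with B dropped. Expressed per kilobase of the longest coding transcript in GENCODE M21, Nars had the highest level of the cytosolic set, at 154.8 CPM per kilobase without and 154.0 with asparagine. Its mitochondrial counterpart Nars2 had 38.6 and 33.0 CPM without asparagine, against 39.5 and 35.4 CPM with it, and the groups overlapped. The log2 fold change of Nars2 was -0.07 ± 0.13 (SE, 95% interval -0.37 to 0.23, edgeR adjusted p = 0.808). It was -0.18 and 0.04 with asparagine-free library A and B dropped.

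The cytosolic member with the highest log2 fold change and the smallest p was Farsa, which encodes the alpha, catalytic subunit of phenylalanyl-tRNA synthetase. Farsa had 55.9 and 45.3 CPM without asparagine (A, then B), against 35.1 and 40.3 CPM with asparagine. Both libraries without asparagine were above both with it. The log2 fold change was 0.42 ± 0.14 (SE, edgeR adjusted p = 0.192). Dropping asparagine-free library A made it 0.26, and dropping asparagine-free library B made it 0.56. Farsb, the beta subunit of the same enzyme, had 125.8 and 134.3 CPM without asparagine, against 124.7 and 130.1 CPM with it, which overlapped. Its log2 fold change was 0.03 (edgeR adjusted p = 0.897).

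After Farsa, the smallest p-values of the cytosolic set belonged to Kars, Hars, Rars and Cars, none of them under the threshold. Kars, for lysine, had 177.6 and 154.3 CPM without asparagine, against 140.4 and 142.5 CPM with it. Hars, for histidine, had 57.9 and 63.0 CPM without asparagine, against 46.1 and 55.2 CPM with it. In both genes the libraries without asparagine were the higher ones, and the log2 fold changes were 0.23 ± 0.11 and 0.25 ± 0.13 (SE, edgeR adjusted p = 0.326 and 0.337). Rars, for arginine, had 241.1 and 248.6 CPM without asparagine, against 215.9 and 215.1 CPM with it. Cars, for cysteine, had 64.4 and 53.0 CPM without asparagine, against 50.4 and 50.2 CPM with it. The groups did not overlap in either gene, with log2 fold changes of 0.18 ± 0.10 for Rars and 0.22 ± 0.12 for Cars (SE, edgeR adjusted p = 0.364 and 0.393). Against the mean with asparagine, on the log2 scale, Kars was 0.33 higher in asparagine-free library A and 0.13 in library B. Hars was 0.20 and 0.32 higher, Rars 0.16 and 0.21, and Cars 0.36 and 0.07. Library A lay below that mean in Aars, Dars, Gars, Iars, Mars and Qars, among others. With either asparagine-free library dropped, a p-value rests on the spread of the libraries with asparagine, since the lone library left has none of its own. No conclusion about a synthetase gene is therefore drawn from calls of such fits.

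At the other end, Gars, for glycine, had the lowest log2 fold change of the cytosolic set. Gars had 162.9 and 234.7 CPM without asparagine (A, then B), against 228.1 and 227.0 CPM with asparagine. Only library A lay below the libraries with asparagine. The log2 fold change was -0.19 ± 0.17 (SE, 95% interval -0.60 to 0.21, edgeR adjusted p = 0.574). With asparagine-free library B dropped it was -0.49, and with library A dropped it was 0.04. Eprs, the bifunctional enzyme for glutamate and proline and the most abundant cytosolic member by CPM, had 553.1 and 651.3 CPM without asparagine, against 579.1 and 600.2 CPM with it, again on either side. Its log2 fold change was 0.03 ± 0.12 (SE, edgeR adjusted p = 0.914), or 0.14 and -0.0957 with asparagine-free library A and B dropped. The other cytosolic members had log2 fold changes between -0.17 (Qars, for glutamine) and 0.19 (Wars, for tryptophan). No interval of a cytosolic member reached a 2-fold difference, the widest ends being -0.60 for Gars and 0.76 for Farsa. The fit shares its estimate of spread between the groups, while the Gars SD was 50.8 CPM without and 0.814 CPM with asparagine. The intervals are therefore not taken as a bound on the size of a difference.

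Among the 13 cytosolic members with a promoter window, those with the CARE letters were Aars, Gars, Iars, Tars and Yars, whose sequences are given above. The unmatched members, Nars among them, could not be searched. Aars, for alanine, had 141.0 and 176.3 CPM without asparagine, against 156.4 and 171.4 CPM with it. Iars, for isoleucine, had 241.7 and 294.7 CPM without asparagine, against 280.2 and 270.1 CPM with it. In Aars, Iars and Yars library A was the lowest and library B the highest of the 4. Their log2 fold changes were -0.05, -0.04 and -0.05 (edgeR adjusted p = 0.876, 0.898 and 0.845). With asparagine-free library B dropped, the log2 fold changes of Aars and Iars were -0.22 and -0.19. Aars shares 1326 exon bases with Exosc6 on the same strand, and 7.15% of the 50-base words of Iars occur in the pseudogene Gm4849, so their counts carry that uncertainty. Tars, for threonine, had 241.3 and 258.5 CPM without asparagine, against 221.7 and 234.8 CPM with it (log2 fold change 0.13, edgeR adjusted p = 0.525). Its log2 fold change was 0.18 and 0.0766 when asparagine-free library A and B were dropped. Only in Tars, of these genes, were both libraries without asparagine above both with it.

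Library A and library B without asparagine differed from each other in the cytosolic set. Library A was the lower of the pair for 16 of the 20 cytosolic members, by a median of -0.19 on the log2 scale, whereas A was below B for 48.8% of all genes, with a median of 0.01. Between the libraries with asparagine, A was the lower for 12 of the 20, with a median of -0.05. Among the 12 cytosolic members commonly listed as ATF4 targets, library A was the lower in 11, by a median of -0.27. Among the other 8 it was the lower in 5, by a median of -0.07. Fitted without library A, 19 of 20 cytosolic members had a log2 fold change above 0 and the median was 0.12. Fitted without library B, 9 lay above and 11 below 0, and the median was -0.06. The asparagine-free libraries A and B also differed in reads outside features and in Rn45s, and the part of either in these values was not tested.

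**Figure D3:**
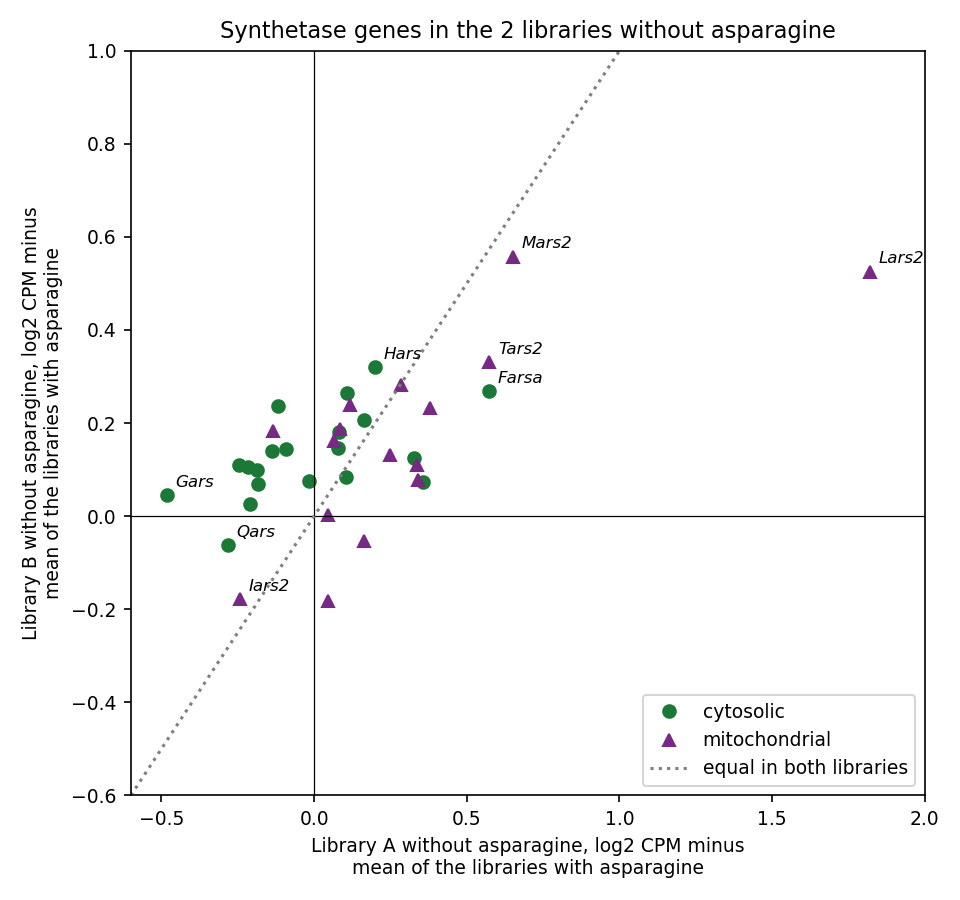
Each synthetase gene in library A (x axis) and library B (y axis) of the cells without asparagine, as log2 CPM minus the mean of the libraries with asparagine. Cytosolic genes (green circles) extend to the left of 0 in library A while nearly all lie above 0 in library B. Mars2, Tars2, Lars2 and Farsa are among the many genes that lie above 0 in both libraries.

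Cytosolic members were also grouped by assembly. Dars, Eprs, Iars, Kars, Lars, Mars, Qars and Rars belong to the multisynthetase complex, a particle held together by scaffold proteins without synthetase activity. Their median log2 fold change was -0.00316, with 4 above and 4 below 0, and they had 0 members at an unadjusted p under 0.05, beside 18.1% of all tested genes. In asparagine-free library A alone their median difference from the mean with asparagine was -0.15, and in library B 0.12. The 12 members outside the complex had a median of 0.10, with 9 above 0, and library medians of 0.0792 in A and 0.12 in B. Of the scaffold genes, Aimp2 had 46.5 and 47.1 CPM without asparagine, against 36.02 and 39.3 CPM with it (log2 fold change 0.31 ± 0.11, SE, edgeR adjusted p = 0.201). The log2 fold changes of the scaffold genes Eef1e1 and Aimp1 were 0.25 and -0.04, and 0 of the 3 were called, beside 1.85% of all tested genes. By catalytic fold, the median was 0.07 for both the class I and the class II cytosolic enzymes, Eprs with a domain of each class being left out. In asparagine-free library A these medians were -0.12 for class I and 0.0303 for class II, and in library B 0.0992 and 0.13.

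Mitochondrial members held 4 of the 5 genes at an unadjusted p under 0.05, namely Mars2, Tars2, Lars2 and Wars2. These were 25% of the set, or 20% with Lars2 left out, beside 18.1% of all tested genes. Mars2, which charges mitochondrial methionine tRNA, had 16.2 and 15.2 CPM without asparagine (A, then B), against 9.79 and 10.8 CPM with asparagine. Both libraries without asparagine were above both with it and close to each other. The means were 15.7 ± 0.732 CPM without and 10.3 ± 0.742 CPM with asparagine (SD over 2 libraries each). This gave a log2 fold change of 0.60 ± 0.14 (SE, 95% interval 0.28 to 0.93), with the smallest adjusted p among the members (edgeR, 0.0901). Dropping asparagine-free library A or B left it at 0.55 or 0.65. With either library grown with asparagine dropped, it was 0.53 or 0.68. The cytosolic counterpart Mars had 89.3 and 114.3 CPM without asparagine, against 104.2 and 107.7 CPM with it (log2 fold change -0.06, edgeR adjusted p = 0.851). With asparagine-free library B dropped, the log2 fold change of Mars was -0.25.

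The Mars2 promoter is shown because this gene had the smallest p of the family. It held no CARE letters, and its match to CCGGAAG, the core that ETS-family factors recognise, is in capitals.
Mars2 promoter (chr1:55236927-55237226, plus strand): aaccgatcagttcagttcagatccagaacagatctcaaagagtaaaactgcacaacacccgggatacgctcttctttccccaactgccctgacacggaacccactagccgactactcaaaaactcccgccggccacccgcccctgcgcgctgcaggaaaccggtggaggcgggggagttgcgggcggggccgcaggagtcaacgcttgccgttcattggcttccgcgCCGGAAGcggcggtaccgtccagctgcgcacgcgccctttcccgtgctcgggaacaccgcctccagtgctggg
The CCGGAAG letters, read on either strand, were present in 4 of the 14 matched mitochondrial members (Cars2, Mars2, Rars2 and Sars2). They were in 5 of the 13 cytosolic ones, against 8.86% of all windows. An exact form of the palindrome recognised by NRF1, searched on both strands with no mismatch allowed, was in none of the 27, against 0.971% of all windows. Forms that differ from it by a base were not searched. With so low a share of all windows, its absence from 27 genes cannot show that these promoters lack NRF1 sites.

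Tars2, which charges mitochondrial threonine tRNA, had 33.6 and 28.4 CPM without asparagine (A, then B), against 23.5 and 21.6 CPM with asparagine. Wars2, for tryptophan, had 37.5 and 37.4 CPM without asparagine, against 31.4 and 30.1 CPM with it. In both genes the groups did not overlap. The log2 fold changes were 0.46 ± 0.13 for Tars2 and 0.28 ± 0.11 for Wars2 (SE, edgeR adjusted p = 0.155 and 0.230). With asparagine-free library A dropped they were 0.33 and 0.28, and with library B dropped 0.57 and 0.28. In the opposite direction, Iars2, for isoleucine, had 78.4 and 82.0 CPM without asparagine, against 91.8 and 93.8 CPM with it, with no overlap. Its log2 fold change was -0.21 ± 0.10 (SE, edgeR adjusted p = 0.320), or -0.25 with asparagine-free library B dropped. In GENCODE M21, 2148 of its 8885 exon bases overlap exons on the opposite strand, mostly of Rab3gap2. Without a stated strand setting, reads of the overlap cannot be assigned to either gene. This limit holds for 13 members in all, among them Fars2 (616 bases), Vars2 (465) and Farsb (248).

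Lars2, which charges mitochondrial leucine tRNA, was the most abundant mitochondrial member and had the highest log2 fold change of the family. Lars2 had 1416 and 577.4 CPM without asparagine (A, then B), against 349.0 and 460.9 CPM with asparagine. Library A without asparagine was far above the other 3 libraries, and library B lay above those with asparagine. The log2 fold change was 1.30 ± 0.38 (SE, 95% interval 0.41 to 2.19, edgeR adjusted p = 0.156). With asparagine-free library A dropped it was 0.51, and with library B dropped 1.80. Rn45s had 34620 and 16790 CPM without asparagine, against 8868 and 11910 CPM with it, so the 4 libraries ranked in the same order for both genes. For every 100 Rn45s reads there were 4.09 and 3.44 Lars2 reads without asparagine, against 3.94 and 3.87 with it. The span of this ratio was small beside the span of Lars2 itself. The part of ribosomal RNA in the Lars2 counts was not tested.

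**Figure D4:**
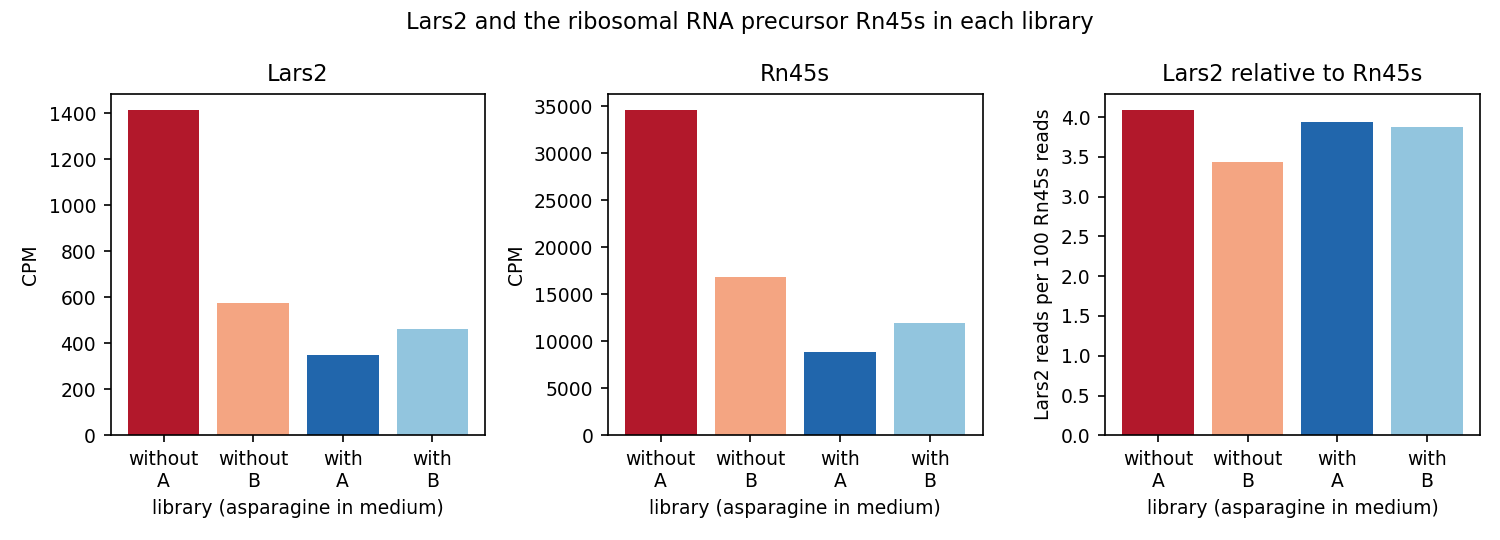
Lars2 and Rn45s in CPM, and Lars2 reads per 100 Rn45s reads, in each of the 4 libraries without and with asparagine. Lars2 spans 349.0 to 1416 CPM and follows Rn45s, while the ratio stays between 3.44 and 4.09.

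Lars2 alone supplied 79.99% and 62.3% of the summed CPM of the mitochondrial set without asparagine, against 50.6% and 58.4% with it. The other 15 mitochondrial members summed to 354.3 and 350.0 CPM without asparagine, against 340.3 and 328.7 CPM with it. Both sums without asparagine were above both with it. Their median log2 fold change was 0.17, with 13 of the 15 above 0 and 9 with both libraries without asparagine above both with it, beside 51.4% and 26.1% of all tested genes. The cytosolic set summed to 3177 and 3622 CPM without asparagine, against 3276 and 3345 CPM with it, on either side.

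The mitochondrial members not yet named in the comparison were Aars2, Cars2, Ears2, Fars2, Hars2, Pars2, Rars2, Sars2, Vars2 and Yars2, with log2 fold changes from 0.02 (Rars2) to 0.31 (Sars2). Against the mean with asparagine, on the log2 scale, Cars2 was 0.34 higher in asparagine-free library A and 0.11 in library B. Sars2, for serine, had 6.59 and 5.95 CPM without asparagine, against 4.83 and 5.27 CPM with it (edgeR adjusted p = 0.396), and log2 fold changes of 0.23 and 0.38 with asparagine-free library A and B dropped. Hars2 and Hars lie head to head on chromosome 18, with 195 exon bases of each overlapping the other on the opposite strand. Their log2 fold changes were 0.19 for Hars2 and 0.25 for Hars. By class, the medians were 0.21 for the mitochondrial class I enzymes and 0.17 for class II, at 0.29 and 0.16 in asparagine-free library A and 0.18 and 0.16 in library B. Unlike the cytosolic set, library A without asparagine was below library B for only 5 of the 16 mitochondrial members, with a median A minus B of 0.11. The difference between the sets in this respect was not tested.

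Cytosolic and mitochondrial enzymes for the same amino acid were set side by side in 17 pairs, the subunits Farsa and Farsb each paired with Fars2, and Eprs with Ears2 and Pars2. The mitochondrial log2 fold change was the higher in 12 pairs and the lower in 5. Against the mean with asparagine, it was the higher in 12 pairs in asparagine-free library A (median difference 0.18) and in 10 in library B (median 0.0177). The differences ranged from -0.37 for Fars2 against Farsa to 1.23 for Lars2 against Lars, with 0.66 for Mars2 against Mars and 0.33 for Tars2 against Tars. Per kilobase of the longest coding transcript, the cytosolic level with asparagine was above the mitochondrial one in every pair other than Lars and Lars2. Leaving that pair out, the ratio of levels per kilobase ranged from 1.79 (Yars over Yars2) to 67.5 (Eprs over Ears2), with a median of 8.65. For Lars over Lars2 it was 0.131 without and 0.306 with asparagine. Transcript lengths are from GENCODE M21 and may not be those the authors counted over, which bears most on Mars2, whose model there is 11294 bases long.

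Other genes on the path of the charged tRNA were counted from lists, which were chosen with earlier results of these data known. Mitochondria make glutaminyl-tRNA with an amidotransferase instead of a synthetase, and of its genes found in the table Qrsl1 and Gatc had log2 fold changes of 0.16 and -0.13. Of 7 tRNA delivery genes 5 lay above 0 and 0 were called, beside 1.85% of all tested genes. The smallest p was that of Eef1d, a subunit of the elongation factor complex. Eef1d had 183.6 and 192.8 CPM without asparagine, against 148.8 and 157.3 CPM with it, with no overlap (log2 fold change 0.30, edgeR adjusted p = 0.195). Of 16 ATF4 targets outside the synthetases, 13 had a log2 fold change above 0, with a median of 0.23, and 0 were called, beside 1.85% of all tested genes. The libraries differed here too, with a median of 0.0478 in asparagine-free library A and 0.36 in library B, and A below B in 11 of the 16. Of these 16, 8 had an unadjusted p under 0.05, 7 of them with higher values without asparagine and 1, the silenced Asns, with lower. This stood beside 0 of the 12 cytosolic synthetases commonly listed as ATF4 targets and 18.1% of all genes. Because the lists were chosen with earlier results known, no difference between them is concluded. Sesn2 and Psat1 were also below 0, at -0.35 and -0.17, with groups that overlapped. Atf3, a stress-induced transcription factor, had 5.99 and 7.51 CPM without asparagine, against 3.32 and 3.40 CPM with it (log2 fold change 1.01, edgeR adjusted p = 0.0638). Ddit3, which encodes CHOP and shares 68 exon bases with Mars on the opposite strand, had 6.43 and 5.14 CPM without asparagine, against 3.11 and 3.47 CPM with it (edgeR adjusted p = 0.128).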

How the data were processed

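Libraries were made from total RNA with a Qiagen RNeasy kit and the Nugen Ovation V2 system, per the labels' protocols. Bowtie2, HTSeq and build mm10 are named in the submitters' processing notes, with no versions, settings, annotation or strand use stated in those notes. Values are raw read counts per gene symbol as deposited, with no normalisation by the authors. The 5 HTSeq summary rows, 60.1% to 70.0% of reads, were left out of library sizes and tests. Gene counts per library were 17977552 and 22581543 without asparagine, and 23867011 and 30260582 with it.

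Members and lists were chosen with earlier results of these data known, and the 12 members listed as ATF4 targets were taken from general knowledge. Genes passing filterByExpr (minimum count 10, minimum total 15) entered TMM scaling and the quasi-likelihood F test of edgeR 4.0.16 (R 4.3.3) on the 2 groups, with Benjamini-Hochberg adjustment over all 12843 genes. The SE is the log2 fold change over the square root of F. The 95% intervals use the test's degrees of freedom. The common biological coefficient of variation was 11.2%. Values per library are printed for the 5 members of each set with the smallest p, the extremes of fold change, the most abundant members and Nars and Nars2, and for the smallest p of a related list, some results of which are not reported here. Values of Farsb, Mars, Aars, Iars, Tars, Sars2, Ddit3 and Rn45s were added after their values were seen. Annotation was GENCODE M21 on GRCm38, the assembly of mm10. Promoters were RefSeq, GRCm38.p6. Log2 CPM used a prior count of 2. Whether A and B came from separate cultures is not stated in the labels, so a p-value here reflects library-to-library spread that may be technical. Gatb and Rtcb of the related lists had no row of that symbol. The pipeline was tested on simulated data. Alternatives were other scalings, filters and tests (DESeq2 1.42.0, limma 3.58.1), a replicate block, Rn45s left out and each library left out.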

Additional observations from a re-analysis of the deposited data

How the results depend on the processing

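No synthetase gene was called with DESeq2 (its size factors in edgeR, or its own test), with limma-voom, with upper quartile scaling, with Rn45s left out, or with a filter of 5 CPM in 2 libraries, which kept 14 mitochondrial members. Without a low-count filter 4 of the 36 were called, 1 cytosolic (Farsa) and 3 mitochondrial (Lars2, Mars2 and Tars2), all higher. That fit called 6.73% of all 19828 genes it tested (1334). With the letter A or B as a replicate block 2 of the 36 were called (Lars2 and Mars2, edgeR adjusted p = 0.00448 and 0.0293), both mitochondrial and higher. That fit called 6.35% of all tested genes (816). The letters are not said to pair the cultures, and the A minus B differences of the groups had a correlation of 0.123 across 12843 genes and -0.376 across the 36 members. DESeq2 called 464 genes in all, 3.61% of those tested. The cause was not tested. Leaving out 1 library at a time gave 0 to 15 synthetase calls (0 to 9 cytosolic, 0 to 6 mitochondrial) and 48 to 5363 over all genes. Dropping asparagine-free library A gave 8 synthetase calls and 2051 in all, and dropping B gave 15 and 5363. Dropping library A or B grown with asparagine gave 0 synthetase calls, and 58 and 48 in all. The fits without asparagine-free library A and without B tested 13121 and 13263 genes. In both, calls rose over all genes as well as among the synthetases. A library left alone in its group was taken to vary as the other group did. No conclusion about the synthetases is drawn from calls of the fits with 1 library left out. The cytosolic median ranged from -0.0584 to 0.115 and the mitochondrial one from 0.17 to 0.21 in these fits. Upper quartile scaling gave a mitochondrial median of 0.23, with the median of all genes at 0.06. With Lars2 left out, an alternative chosen after seeing the data, the mitochondrial median was 0.17. Of 430 values of single members under the alternatives, 21 changed sign without being called.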

Other observations

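Genes that make and trim tRNA before it is charged were not described above. Of 11 tested genes of tRNA processing and CCA addition, 10 had a log2 fold change above 0, with a median of 0.24, and 0 were called (edgeR, adjusted p threshold 0.05), beside 1.85% of all tested genes. At an unadjusted p under 0.05 there were 2, or 18.2%, beside 18.1% of all tested genes. The median difference from the mean with asparagine was 0.15 in asparagine-free library A and 0.22 in library B. In 8 of the 11 both libraries without asparagine were above both with it, beside 26.1% of all tested genes. Pop1, a protein subunit of RNase P, the enzyme that trims the 5′ end of precursor tRNA, had 140.8 and 139.5 CPM without asparagine, against 103.9 and 105.7 CPM with it (log2 fold change 0.42 ± 0.10, SE, edgeR adjusted p = 0.0969). Trnt1, which adds the CCA end, had 54.5 and 61.1 CPM without asparagine, against 54.6 and 50.8 CPM with it, and was chosen after its values were seen.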
